A study of Mus musculus with 4 samples.

Results

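The genes described here are the variable (V) segments of the mouse immunoglobulin loci, in libraries whose labels name CD8+ lymphocytes from peripheral blood mononuclear cells (PBMC). Members were chosen by annotation and by raw reads: the rows that both deposited gene tables class as immunoglobulin V genes and that held at least 10 raw reads summed over the 4 libraries. There were 203 such segments among 218 rows of that class and 53801 genes in all. They comprised 101 heavy-chain segments (Ighv), 97 kappa segments (Igkv), 3 lambda segments (Iglv) and 2 unnamed segments, Gm42543 and Gm43218. The choice used the read sums themselves, so that the members were detected is not a result. The 15 rows left out held 42 reads together, 3 of them held none, and the highest had a sum of 9 reads against 11 for the lowest row kept.

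The 4 libraries were 1 of each group. In the B16 model (a mouse melanoma line) and in the CT-26 model (a mouse colon carcinoma line), circulating tumor-reactive lymphocytes (CTRL), labelled as multimer-binding, were sequenced beside a population labelled residual. The multimers are reagents that bind T cell receptors of a chosen specificity. All 4 groups carry the genotype label WT and the treatment label Multimer-binding, the residual groups included, and no label gives a strain, an age or a number of animals. Tumour model, mouse strain and library therefore cannot be told apart. The submitters' processing notes name the genome build mm10.

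A V segment is expressed at a high level only in B lineage cells, where recombination has joined it to a diversity (D, heavy chain only) and a joining (J) segment ahead of the constant region. Each B cell clone uses 1 heavy-chain and usually 1 light-chain V segment, and many clones can use the same segment. The share of reads per segment thus describes segment use weighted by RNA per cell, and does not identify clones. Plasma cells hold far more immunoglobulin RNA per cell than resting B cells. In mouse blood kappa light chains prevail over lambda. The heavy-chain locus is ordered, with the Ighv5 family among those nearest to the D and J segments and the large Ighv1 family at the far end.

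The sequences below are those on which the comparisons of segment use turn. Each is the coding part of the V exon from GENCODE M21 (GRCm38, the same build as mm10), 5′ to 3′ on the coding strand, without the 11 leader bases at its start, so that it begins at the first codon of the mature chain. The first set holds 3 Ighv5 segments, the family with the largest share in the CT-26 CTRL library. Capitals in Ighv5-4 (14 bases) and Ighv5-9-1 (17 bases) mark positions that differ from Ighv5-6. The segments lie on the minus strand at chr12:113625506-113625801, chr12:113597446-113597741 and chr12:113736111-113736406.
Ighv5-6: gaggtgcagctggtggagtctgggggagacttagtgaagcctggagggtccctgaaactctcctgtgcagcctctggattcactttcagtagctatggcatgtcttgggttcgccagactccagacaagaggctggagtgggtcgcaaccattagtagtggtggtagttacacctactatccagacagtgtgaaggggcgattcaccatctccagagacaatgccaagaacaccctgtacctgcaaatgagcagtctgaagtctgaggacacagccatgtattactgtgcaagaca
Ighv5-4: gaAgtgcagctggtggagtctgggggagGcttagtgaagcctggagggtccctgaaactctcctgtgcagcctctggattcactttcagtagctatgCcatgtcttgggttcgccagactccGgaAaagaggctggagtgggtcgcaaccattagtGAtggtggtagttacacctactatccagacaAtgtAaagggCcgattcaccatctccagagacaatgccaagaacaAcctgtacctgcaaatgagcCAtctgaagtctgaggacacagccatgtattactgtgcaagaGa
Ighv5-9-1: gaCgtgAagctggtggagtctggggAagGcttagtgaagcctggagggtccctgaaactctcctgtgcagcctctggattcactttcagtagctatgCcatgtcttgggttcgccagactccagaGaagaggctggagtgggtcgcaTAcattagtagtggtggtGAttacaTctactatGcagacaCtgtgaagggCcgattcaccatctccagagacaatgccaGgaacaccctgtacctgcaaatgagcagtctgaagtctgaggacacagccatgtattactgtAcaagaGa

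The second set holds the most used heavy-chain segments of the B16 CTRL library, Ighv1-81 at chr12:115920279-115920572 and Ighv1-64 at chr12:115507545-115507838, both on the minus strand. Capitals in Ighv1-64 mark 33 positions that differ from Ighv1-81.
Ighv1-81: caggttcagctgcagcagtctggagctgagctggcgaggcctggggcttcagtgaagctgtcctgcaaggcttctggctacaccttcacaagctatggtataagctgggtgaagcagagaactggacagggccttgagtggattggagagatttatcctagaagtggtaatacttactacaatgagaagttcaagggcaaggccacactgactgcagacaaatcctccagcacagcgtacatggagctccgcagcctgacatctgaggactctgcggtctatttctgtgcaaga
Ighv1-64: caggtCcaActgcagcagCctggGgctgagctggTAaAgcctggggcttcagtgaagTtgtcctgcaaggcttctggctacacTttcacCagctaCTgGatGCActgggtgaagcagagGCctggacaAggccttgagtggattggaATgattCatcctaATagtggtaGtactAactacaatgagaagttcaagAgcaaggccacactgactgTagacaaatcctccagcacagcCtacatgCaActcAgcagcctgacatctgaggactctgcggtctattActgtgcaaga

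The third set shows 2 kappa segments of the same family whose log2 ratios of CTRL over residual were above 0 in both models, Igkv12-98 at chr6:68570949-68571235 (plus strand) and Igkv12-89 at chr6:68834846-68835132 (minus strand). Capitals in Igkv12-89 mark 62 positions that differ from Igkv12-98, an identity of 78.4%.
Igkv12-98: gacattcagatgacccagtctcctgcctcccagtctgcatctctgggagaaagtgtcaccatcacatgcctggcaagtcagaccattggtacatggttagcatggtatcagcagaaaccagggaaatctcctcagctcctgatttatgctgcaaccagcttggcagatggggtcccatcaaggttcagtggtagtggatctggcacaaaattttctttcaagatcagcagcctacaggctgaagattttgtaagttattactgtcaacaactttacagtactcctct
Igkv12-89: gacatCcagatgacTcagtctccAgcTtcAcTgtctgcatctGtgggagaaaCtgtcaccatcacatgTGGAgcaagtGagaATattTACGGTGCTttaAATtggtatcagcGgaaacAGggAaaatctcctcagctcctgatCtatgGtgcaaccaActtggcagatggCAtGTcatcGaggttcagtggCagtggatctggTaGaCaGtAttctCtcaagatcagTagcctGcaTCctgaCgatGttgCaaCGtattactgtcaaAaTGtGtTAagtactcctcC

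The last set shows 2 lambda segments, Iglv1 at chr16:19085017-19085310 and Iglv2 at chr16:19260401-19260694, both on the minus strand. They differ at 7 positions, in capitals in Iglv2, an identity of 97.6%.
Iglv1: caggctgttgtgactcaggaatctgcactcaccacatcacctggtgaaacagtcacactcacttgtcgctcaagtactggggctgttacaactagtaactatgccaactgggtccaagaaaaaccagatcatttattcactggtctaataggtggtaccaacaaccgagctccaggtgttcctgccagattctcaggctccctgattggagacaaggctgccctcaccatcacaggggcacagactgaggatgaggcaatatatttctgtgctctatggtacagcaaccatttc
Iglv2: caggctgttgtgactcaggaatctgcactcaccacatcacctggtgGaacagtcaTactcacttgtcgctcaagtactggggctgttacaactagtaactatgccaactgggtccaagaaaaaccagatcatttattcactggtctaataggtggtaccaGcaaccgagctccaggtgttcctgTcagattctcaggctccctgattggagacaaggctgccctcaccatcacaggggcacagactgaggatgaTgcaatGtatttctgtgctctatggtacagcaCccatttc

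Near-identical segments were common. Of the 101 Ighv segments 56, and of the 97 Igkv segments 44, were at least 95% identical to another V segment, and Ighv1-62-2 and Ighv1-71 were identical. The sources used here do not say how reads that match several segments were counted. Values of single segments are thus uncertain where a near copy exists, while sums by family or chain are less exposed. Reads of a strain that differs from mm10 may also be counted on other segments, which was not tested. This bears on segments with few or no reads in a model.

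Depth in genes was 37166063 reads in the B16 CTRL and 39068457 in the B16 residual library, and 74879891 in the CT-26 CTRL and 50823018 in the CT-26 residual library. The labelled cell type was checked first. Summed CPM (reads of a gene scaled to a common library total) of Cd8a and Cd8b1, the chains of the CD8 co-receptor, were 1331 in B16 CTRL against 3.23 in B16 residual, and 2312 in CT-26 CTRL against 33.5 in CT-26 residual, so the residual libraries held little CD8 RNA. All 14 B cell markers (among them Cd79a, Ms4a1 and Pax5) had reads in every library, with summed levels of 8138 CPM in B16 CTRL against 951 in B16 residual, and 349 CPM in CT-26 CTRL against 1059 in CT-26 residual. A list of 6 T cell genes (among them Cd3e and Trac) summed to 2697 CPM in B16 CTRL against 438 in B16 residual. In CT-26 it summed to 5364 CPM in CTRL against 1543 in residual. The B cell sum was thus above the T cell sum in both B16 libraries, CTRL included, and below it in both CT-26 libraries. A list of 7 genes of other blood cells (hemoglobin, granulocyte, monocyte, natural killer and platelet genes) summed to 12376 CPM in B16 CTRL against 337450 in B16 residual, and to 5508 in CT-26 CTRL against 101613 in CT-26 residual. Hemoglobin made up most of that sum in B16 residual, with 194592 CPM of Hbb-bs and 130874 CPM of Hba-a1. CPM are parts of 1 total, so such levels lower the CPM of other genes there. By the rule of size given below, 6 of the 7 were lower in B16 CTRL and 7 in CT-26 CTRL, beside 11.7% and 16.3% of genes at 10 CPM. Ncr1, a natural killer gene, was not called in B16 (13.4 CPM in CTRL against 11.8 in residual). The part of the B cell content in the differences below was not tested. In bulk RNA, fewer B cells and less immunoglobulin RNA per B cell cannot be told apart.

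V-segment reads summed to 102418 in the B16 CTRL library (2756 CPM), against 9423 in the B16 residual library (241 CPM). In CT-26 they summed to 5456 in the CTRL library (72.9 CPM), against 40326 in the residual library (793 CPM). The B16 CTRL library was thus the highest of the 4 and the CT-26 CTRL library the lowest. On the deposited normalized counts the sum was 6.37-fold higher in B16 CTRL than in B16 residual cells (log2 ratio 2.67, exact 95% interval of the fold 6.24 to 6.51). In CT-26 it was 12.5-fold lower in CTRL than in residual cells (log2 ratio -3.64, interval of the fold 12.1 to 12.8). Each group has 1 library, so there is no replicate check and no test within a model, and all intervals here reflect counting error alone. PCR copies cannot be told from separate molecules without molecular identifiers. The intervals treat each read as a separate molecule and may therefore be too narrow even for counting error. V-segment RNA followed the same direction as the B cell list in both models. By the rule of size given below, 12 of the 14 genes of that list were higher and none lower in B16 CTRL. Of the genes at 10 CPM in the higher library, 26.8% were called higher and 11.7% lower there. In CT-26 CTRL, 13 genes of the list were lower and none higher, beside 16.3% lower and 14.5% higher among genes at 10 CPM. Gene lists, here and below, also count genes under 10 CPM, which the rule cannot call.

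**Figure D1:**
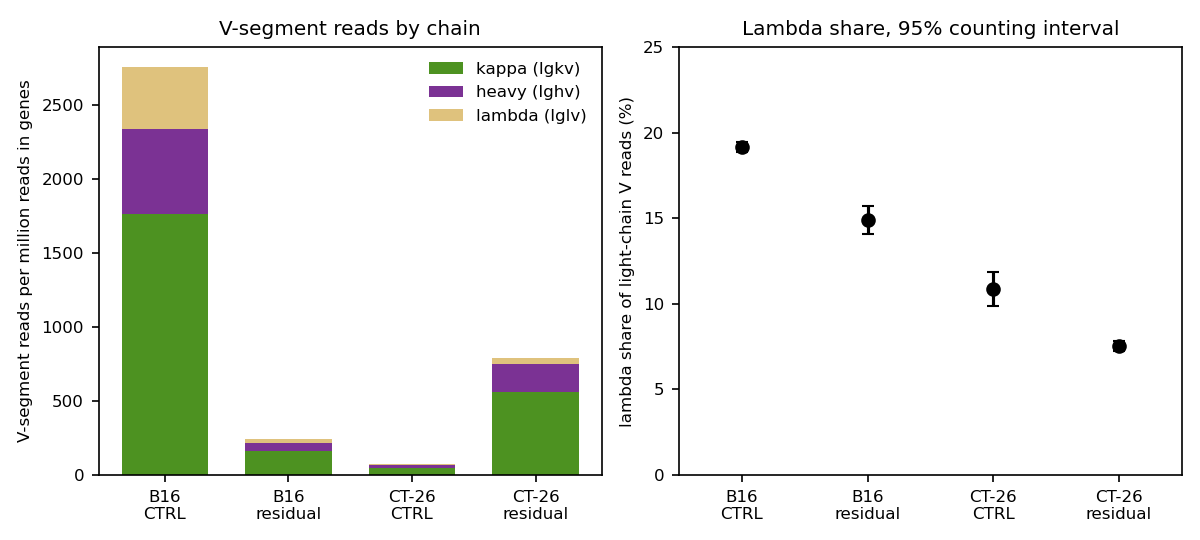
V-segment CPM by chain in each library (left, stacked bars) and the lambda share of light-chain V reads with exact 95% counting intervals (right). The B16 CTRL bar reaches 2756 CPM and the CT-26 CTRL bar 72.9 CPM, and the lambda share is above that of the residual library in both models.

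Each chain shared the direction of the total in its model. In B16, log2 ratios of CTRL over residual were 2.60 for Ighv, 2.62 for Igkv and 3.05 for Iglv. In CT-26 they were -3.34 for Ighv, -3.79 for Igkv and -3.21 for Iglv. A segment was called by a rule of size when its log2 ratio of deposited normalized counts, each with a pseudocount of 1, was 1 or more in either direction and 10 CPM or more was reached in the higher of the libraries. In B16, 71 segments reached that level and 68 of them were higher in CTRL and 0 lower, where 26.8% of the 9289 genes at that level were called higher and 11.7% lower. In CT-26, 22 segments reached it and 22 were lower in CTRL and 0 higher, against a background of 16.3% lower and 14.5% higher among 9514 genes. Only 1 segment was at 10 CPM in B16 residual and none in CT-26 CTRL, so the segments reached the level through the library in which they were high, and the counts describe and do not support the direction. The split of background calls depended on the scaling: the higher genes made up 69.5% of calls in B16 and 47.0% in CT-26 on normalized counts, and 90.8% and 58.0% on CPM. On CPM, 62.2% of genes were called higher and 6.30% lower in B16, and 19.7% higher and 14.3% lower in CT-26. That scaling moved the median of all genes by 0.79 and 0.18 on the log2 scale.

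Without a level, the median log2 ratio over the 202 segments with reads in B16 was 2.41, beside a median of 0.47 over all genes at 10 CPM. Over the 196 segments with reads in CT-26 it was -3.34, beside 0.23. Among the 195 segments with reads in both models, 178 were above 0 in B16 and below 0 in CT-26, none was the reverse, 11 were below 0 in both and 6 were above 0 in both. The 6 above 0 in both, none of them called in CT-26, were Igkv12-98, Igkv1-99, Igkv12-89, Igkv4-62, Ighv14-4 and Ighv12-3. In CT-26, Igkv4-62 had only 2 reads in CTRL against 1 in residual, and Ighv12-3 had 8 reads in CTRL against 3 in residual.

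**Figure D2:**
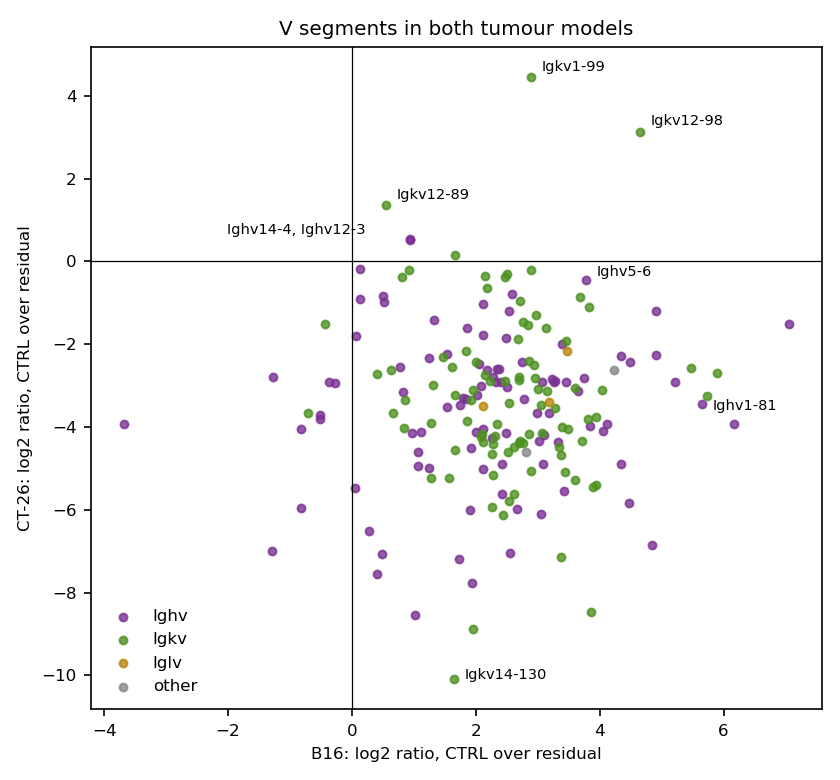
Log2 ratio of deposited normalized counts plus 1, CTRL over residual, in B16 (horizontal) and CT-26 (vertical), 1 point per V segment with reads in both models. Of the 195 segments, 178 lie at the lower right, and Igkv12-98 and Igkv1-99 stand highest at the upper right.

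Igkv12-98 had 1835 reads in B16 CTRL against 42 in B16 residual, and 188 reads in CT-26 CTRL against 12 in CT-26 residual. Its log2 ratio was 4.65 (interval 4.24 to 5.16) in B16 and 3.14 (2.38 to 4.20) in CT-26, but in CT-26 it stayed under 10 CPM in both libraries and so was not called. Of the Igkv reads it took 5.40% in CT-26 CTRL against 0.0419% in CT-26 residual, and 2.81% in B16 CTRL against 0.671% in B16 residual. Igkv1-99, the next segment on chromosome 6 on the same strand, had 135 reads in B16 CTRL against 10 in B16 residual, and 64 in CT-26 CTRL against 1 in CT-26 residual. Its share of Igkv reads in B16 was 0.206% in CTRL against 0.160% in residual (log2 share ratio 0.37, interval -0.55 to 1.46). The segments on either side of this pair were also higher in B16 CTRL, but lower in CT-26 CTRL. Igkv14-100 had 1054 reads in B16 CTRL against 100 in B16 residual, and 4 in CT-26 CTRL against 70 in CT-26 residual. Igkv10-96 had 2590 reads in B16 CTRL against 262 in B16 residual, and 26 in CT-26 CTRL against 893 in CT-26 residual. Igkv12-89 had 178 reads in B16 CTRL against 71 in B16 residual (log2 ratio 0.55), and 184 in CT-26 CTRL against 42 in CT-26 residual (1.36), and was called in neither model. Its share of Igkv reads was lower in B16 CTRL, at 0.272% against 1.13% in B16 residual, and higher in CT-26 CTRL, at 5.29% against 0.147% in CT-26 residual.

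A fit over all 4 libraries (edgeR's quasi-likelihood test with terms for tumour model and population, Benjamini-Hochberg adjustment over 18749 genes) tested 173 segments and called none, beside 0.0% of all genes called in either direction and 2998 genes at an unadjusted p under 0.05. The fit asks for a change shared by both models, which leaves 1 residual degree of freedom among samples. Of the segments, 2 had an unadjusted p under 0.05, both higher in CTRL. They were Igkv12-98 (log2 3.82, SE 0.60, adjusted p = 0.202) and Igkv1-99 (log2 3.65, SE 1.16, adjusted p = 0.288). DESeq2 called 1 segment of 188 higher and none lower, beside 1.48% of 20250 genes higher and 7.38% lower. Without its filter on low counts edgeR also called 1 segment higher, beside 0.416% of 40101 genes higher and 2.04% lower.

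The light chains differed in their lambda share. Lambda segments made up 19.2% of light-chain V reads in B16 CTRL (exact 95% interval 18.9 to 19.4) against 14.9% in B16 residual (14.1 to 15.7), and 10.8% in CT-26 CTRL (9.88 to 11.9) against 7.52% in CT-26 residual (7.23 to 7.82). The intervals did not overlap within either model, and the share was higher in CTRL in both. The lambda share of light-chain constant-region reads, from Iglc1, Iglc2 and Iglc3 against Igkc, was 28.3% in B16 CTRL against 30.6% in B16 residual, and 26.7% in CT-26 CTRL against 14.7% in CT-26 residual. Segment and constant region thus gave the same order in CT-26 and opposite orders in B16. Among lambda segments, Iglv1 held most reads in every library, with 9516 in B16 CTRL against 612 in B16 residual, and 242 in CT-26 CTRL against 1528 in CT-26 residual. Iglv2 took 25.3% of Iglv reads in B16 CTRL against 18.8% in B16 residual, and 24.8% in CT-26 CTRL against 12.2% in CT-26 residual. Iglv3, which is not a near copy of the other two, took 13.3% in B16 CTRL against 25.2% in B16 residual, and 18.0% in CT-26 CTRL against 22.2% in CT-26 residual.

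The heavy chain supplied 20.9% of V reads in B16 CTRL against 21.9% in B16 residual, and 28.5% in CT-26 CTRL against 23.2% in CT-26 residual. The spread over segments was measured as the effective number, the exponential of the Shannon entropy of read shares, which equals the number of equally used segments with that entropy. For Ighv it was 45.2 in B16 CTRL against 60.4 in B16 residual, and 20.6 in CT-26 CTRL against 47.3 in CT-26 residual. Without the most used segment of each library, Ighv5-6 in CT-26 CTRL, the CT-26 values were 35.7 in CTRL against 49.0 in residual. For Igkv it was 56.0 in B16 CTRL against 58.5 in B16 residual, and 50.3 in CT-26 CTRL against 44.2 in CT-26 residual. The B16 order of Igkv turned without the most used segment, to 60.7 in CTRL against 58.8 in residual. The CT-26 CTRL library also had the fewest V reads. At 1553 Ighv reads, its own total, 69.0 segments were detected in CT-26 CTRL, against 88.4 expected at that depth in CT-26 residual, and 88.1 in B16 CTRL against 92.2 in B16 residual. At 3480 Igkv reads the numbers were 84.0 in CT-26 CTRL against 85.5 in CT-26 residual, and 92.0 in B16 CTRL against 92.5 in B16 residual. At 1000 Igkv reads the CT-26 order was the opposite, 77.7 in CTRL against 74.0 in residual. At equal depth the number of Ighv segments was lower in CT-26 CTRL than in CT-26 residual.

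Heavy-chain use in CT-26 CTRL was dominated by 1 segment. Ighv5-6 had 514 of 1553 Ighv reads in CT-26 CTRL (33.1%, interval 30.8 to 35.5) against 417 of 9355 in CT-26 residual (4.46%, 4.05 to 4.90). It was the most used segment there, and the next, Ighv5-4, had 113 reads (7.28%) against 400 in CT-26 residual (4.28%). While the sum of all segments was 12.5-fold lower in CT-26 CTRL, Ighv5-6 had a log2 ratio of -0.45 (interval -0.64 to -0.26). In B16, Ighv5-6 had 530 reads in CTRL (2.48% of Ighv reads) against 22 in residual (1.07%). Ighv5-9, of the same family, had 78 reads (5.02%) in CT-26 CTRL against 170 (1.82%) in CT-26 residual. Also among the first 5 segments of CT-26 CTRL were Ighv14-1 with 96 reads (6.18%) against 65 (0.695%) in CT-26 residual, and Ighv14-4 with 82 reads (5.28%) against 34 (0.363%).

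In B16 CTRL the leading heavy-chain segments were of the Ighv1 family. Ighv1-81 had 2564 reads (12.0% of Ighv reads) in B16 CTRL against 29 (1.41%) in B16 residual, the largest ratio among segments at 10 CPM (log2 ratio 5.66, interval 5.17 to 6.28). Ighv1-64 had 1885 reads (8.82%) in B16 CTRL against 54 (2.62%) in B16 residual. Both were nearly unread in CT-26, where Ighv1-81 had 1 read in CTRL against 14 in residual and Ighv1-64 had 0 reads in CTRL against 22 in residual. Ighv9-3, Ighv1-74 and Ighv3-6 followed with 1417, 802 and 722 reads in B16 CTRL, against 97, 15 and 78 in B16 residual. B16 residual was led by Ighv5-4 with 120 reads (5.81%), which had 351 reads (1.64%) in B16 CTRL. CT-26 residual was led by Ighv1-9 with 768 reads (8.21%), against 19 (1.22%) in CT-26 CTRL.

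**Figure D3:**
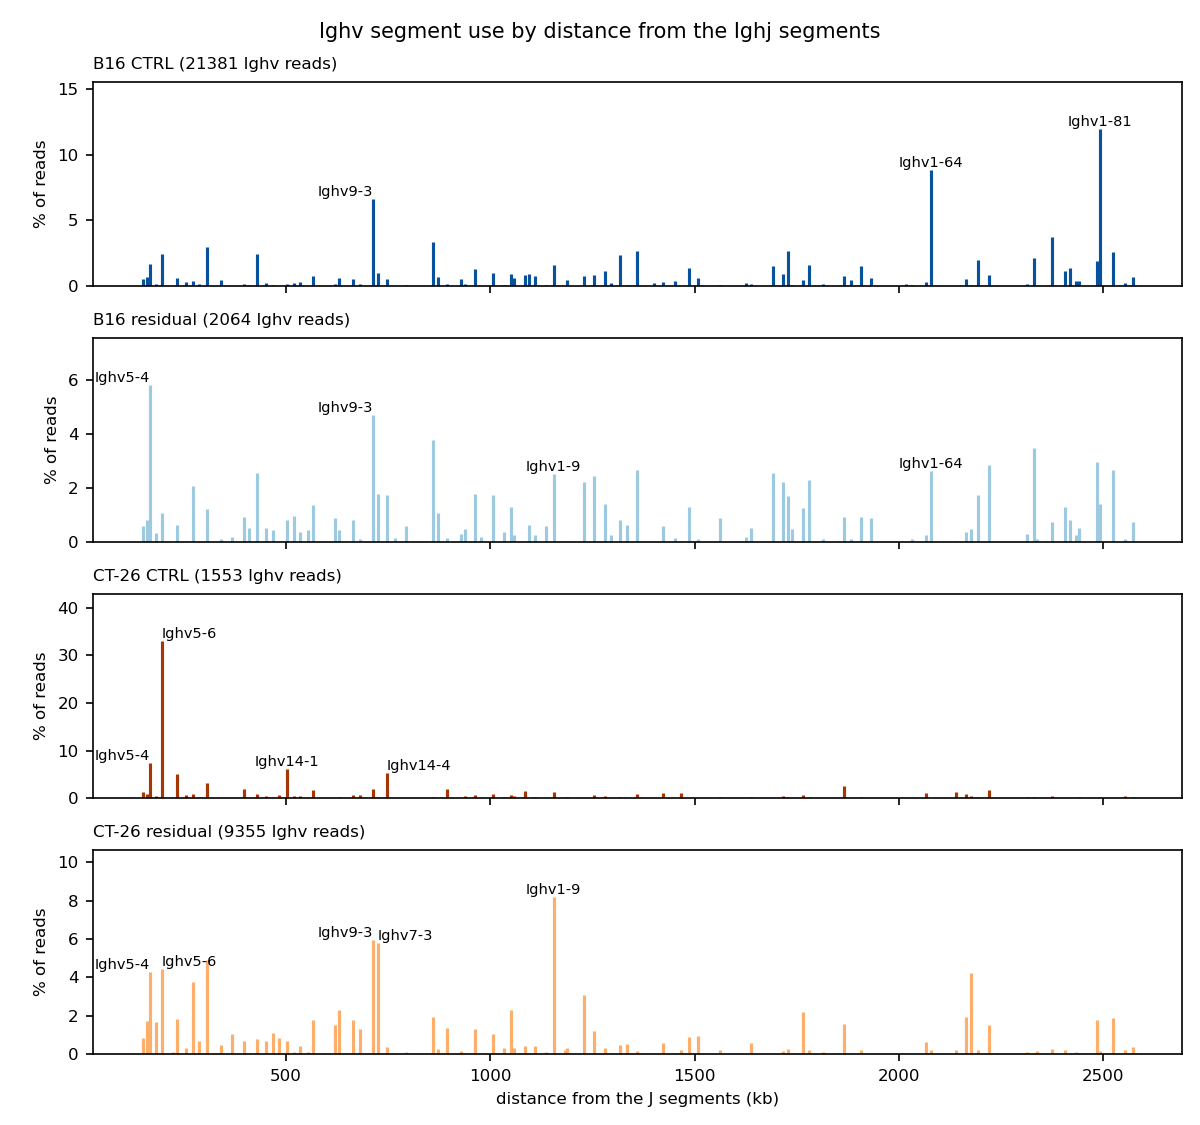
Share of Ighv reads (vertical, percent, its own scale in each panel) of each segment by distance from the Ighj segments (horizontal, kb), 1 panel per library. Ighv5-6 reaches 33.1% in CT-26 CTRL, near the J end, and Ighv1-81 reaches 12.0% in B16 CTRL, near the far end.

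By family, Ighv1 (50 segments) took 64.3% of Ighv reads in B16 CTRL against 49.6% in B16 residual, and 14.4% in CT-26 CTRL against 34.6% in CT-26 residual. Ighv5 (9 segments) took 11.2% in B16 CTRL against 15.4% in B16 residual, and 53.4% in CT-26 CTRL against 21.5% in CT-26 residual. With its most used segment left out of each library, Ighv5 still took 30.3% in CT-26 CTRL against 17.5% in CT-26 residual, and 8.55% in B16 CTRL against 10.2% in B16 residual. Ighv14 (4 segments) took 2.13% in B16 CTRL against 4.36% in B16 residual, and 13.5% in CT-26 CTRL against 5.13% in CT-26 residual. Ighv7 ran the other way in CT-26, with 0.901% in CTRL against 7.85% in residual. Its member Ighv7-3 had 5 reads in CT-26 CTRL against 541 in CT-26 residual. Ighv5 and Ighv14, larger in CT-26 CTRL than in CT-26 residual, were smaller in B16 CTRL than in B16 residual. Ighv5-9-1 ran against its family in both models. It had 48 reads (3.09%) in CT-26 CTRL against 458 (4.90%) in CT-26 residual. In B16 it had 628 reads (2.94%) in CTRL against 25 (1.21%) in residual.

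**Figure D4:**
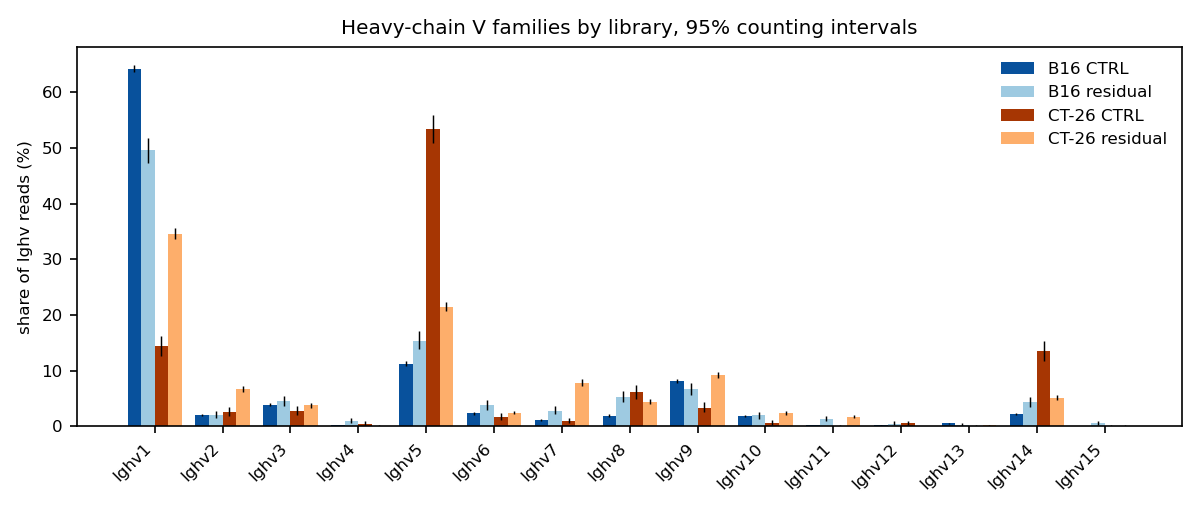
Share of Ighv reads by V family (percent) in the 4 libraries, with exact 95% counting intervals. Ighv5 reaches 53.4% in CT-26 CTRL, and Ighv1 64.3% in B16 CTRL.

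The Ighv members were also grouped by rank of distance from the J segments. The 34 nearest segments, from 149.5 to 859.1 kb, held 28.0% of Ighv reads in B16 CTRL against 36.9% in B16 residual, and 74.8% in CT-26 CTRL against 54.3% in CT-26 residual. Without the most used of them in each library, CT-26 CTRL still held 62.3% there against 51.4% in CT-26 residual. The 33 farthest segments held 50.4% in B16 CTRL against 37.3% in B16 residual, and 11.8% in CT-26 CTRL against 19.4% in CT-26 residual. For Igkv the 32 farthest segments held 41.6% in B16 CTRL against 41.4% in B16 residual, and 35.0% in CT-26 CTRL against 30.1% in CT-26 residual.

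**Figure D5:**
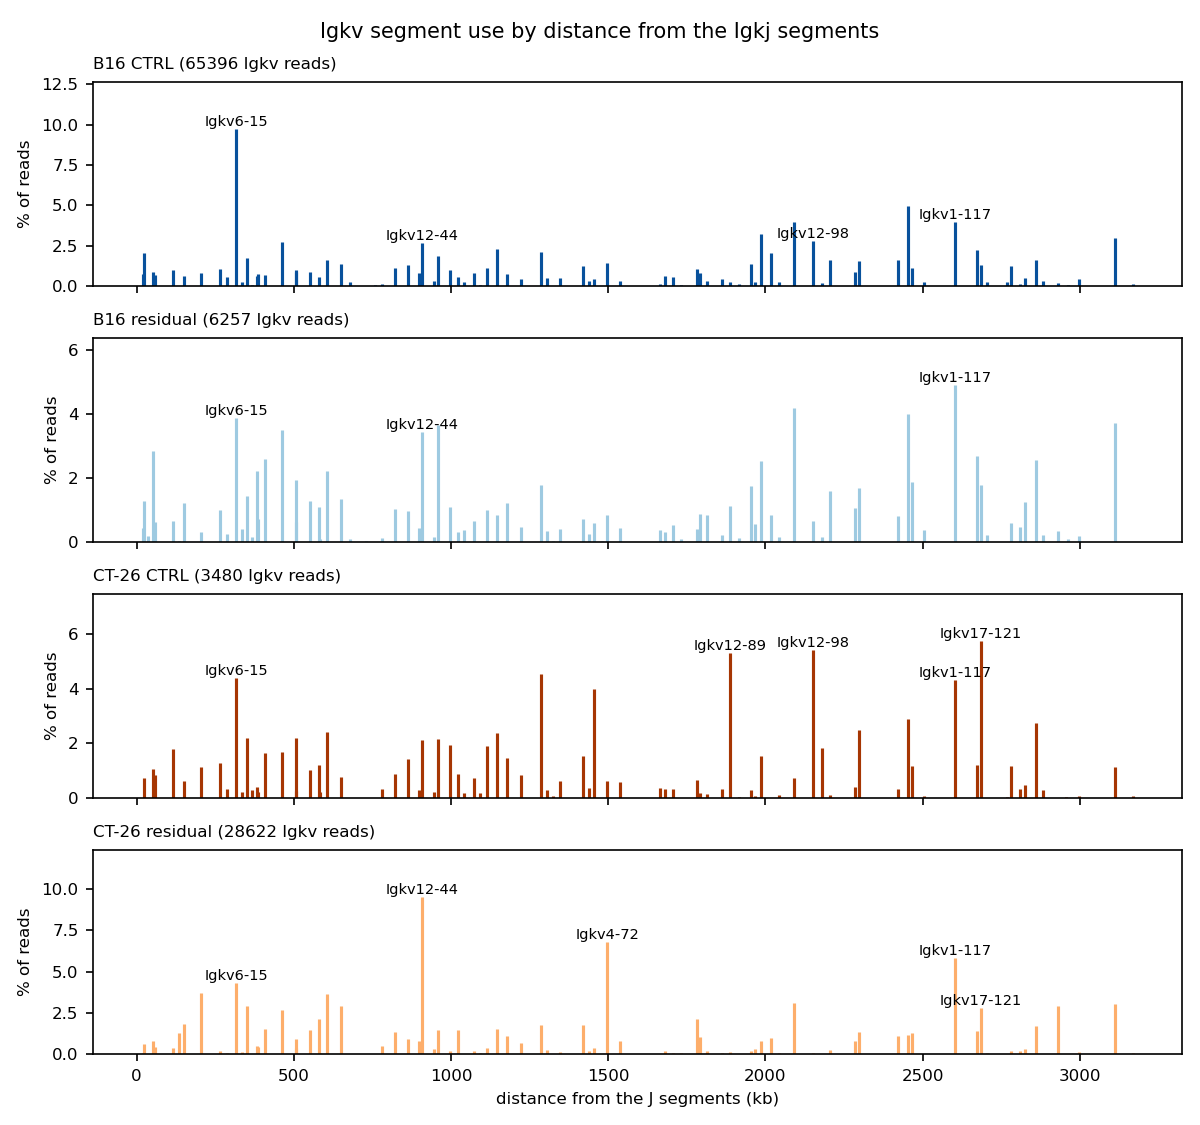
Share of Igkv reads (vertical, percent, its own scale in each panel) of each segment by distance from the Igkj segments (horizontal, kb), 1 panel per library. Igkv6-15 stands at 9.74% in B16 CTRL and Igkv12-44 at 9.54% in CT-26 residual, while no segment passes 5.75% in CT-26 CTRL.

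Among kappa segments the most used were Igkv6-15 in B16 CTRL (6371 reads, 9.74%), which had 242 reads (3.87%) in B16 residual, and Igkv1-117 in B16 residual (307 reads, 4.91%), which had 2594 reads (3.97%) in B16 CTRL. In CT-26 CTRL, Igkv17-121 led with 200 reads (5.75%) against 794 (2.77%) in CT-26 residual, followed by Igkv12-98 and Igkv12-89. In CT-26 residual, Igkv12-44 led with 2731 reads (9.54%) against 74 (2.13%) in CT-26 CTRL, and Igkv4-72 followed with 1938 reads (6.77%) against 22 (0.632%). Igkv14-130 had no reads in CT-26 CTRL against 838 in CT-26 residual. In B16 it had 121 reads in CTRL against 22 in residual. The smallest ratios among segments at 10 CPM in B16 were those of Igkv8-21, Igkv8-19 and Igkv3-4, with log2 ratios of 0.66, 0.83 and 0.85.

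The overlap of use between libraries, the sum over segments of the smaller of both shares, was 65.2% for Ighv between B16 CTRL and B16 residual and 44.0% between CT-26 CTRL and CT-26 residual. It was 30.7% between the CTRL libraries of the models and 54.6% between their residual libraries. For Igkv the same overlaps were 77.8%, 58.1%, 66.3% and 65.1%. Spearman's rho over the 101 Ighv segments was 0.72 between the B16 libraries and 0.25 between the CTRL libraries, given as a description, since segments of 1 library share its depth and its clones.

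Segments known from the B-1 cell repertoire were looked up by name. In mice, antibodies that bind phosphatidylcholine pair Ighv11-2 with Igkv14-126, or Ighv12-3 with Igkv4-91. Ighv11-2 had 41 reads in B16 CTRL against 18 in B16 residual, and 0 in CT-26 CTRL against 144 in CT-26 residual. Igkv14-126 had 333 reads in B16 CTRL against 78 in B16 residual, and 16 in CT-26 CTRL against 81 in CT-26 residual. Ighv12-3 had 34 reads in B16 CTRL against 10 in B16 residual, and 8 in CT-26 CTRL against 3 in CT-26 residual. Igkv4-91 had 877 reads in B16 CTRL against 109 in B16 residual, and 10 in CT-26 CTRL against 49 in CT-26 residual. No pair had both segments among the first 5 of its chain in any library. Of 6 genes associated with B-1 cells, 2 were higher and 2 lower in B16 CTRL, beside 26.8% and 11.7% of genes at 10 CPM. In CT-26 CTRL, 1 was higher and 3 lower, beside 14.5% and 16.3%. Several of them, such as Cd5 and Spn, are T cell genes too.

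The constant regions and the J segments give the setting of these V reads. Ighm, the IgM heavy chain, had 168311 reads in B16 CTRL against 19813 in B16 residual, and 39303 in CT-26 CTRL against 33251 in CT-26 residual. Class-switched constant regions (the Ighg genes, Igha and Ighe) made up 0.165% of heavy constant reads in B16 CTRL against 5.77% in B16 residual, and 3.01% in CT-26 CTRL against 57.6% in CT-26 residual. Of the 12 constant-region genes, 6 were higher and 1, Igha, lower in B16 CTRL, beside 26.8% and 11.7% of genes at 10 CPM. In CT-26 CTRL, 0 were higher and 9 lower, beside 14.5% and 16.3%. Ighm passed the rule in B16 and not in CT-26. For 100 heavy constant reads there were 9.50 Ighv reads in B16 CTRL against 7.70 in B16 residual, and 3.54 in CT-26 CTRL against 10.2 in CT-26 residual. For 100 Igkc reads there were 55.8 Igkv reads in B16 CTRL against 42.0 in B16 residual, and 58.1 in CT-26 CTRL against 50.9 in CT-26 residual. For 100 lambda constant reads there were 33.5 Iglv reads in B16 CTRL against 16.6 in B16 residual. In CT-26 there were 19.4 in CTRL against 24.1 in residual. The CT-26 CTRL library was therefore low in V reads for its heavy constant reads and not for its kappa constant reads. There, Ighm had 6.56 reads per Igkc read, against 0.591 in CT-26 residual, 1.44 in B16 CTRL and 1.33 in B16 residual.

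Ighj1 took 16.8% of Ighj reads in B16 CTRL against 24.0% in B16 residual, and 34.0% in CT-26 CTRL against 16.3% in CT-26 residual. Ighv reads per Ighj read were 9.68 in B16 CTRL against 12.1 in B16 residual, and 3.11 in CT-26 CTRL against 8.04 in CT-26 residual. Of the D segments, which lie between V and J, Ighd1-1 had the most reads in B16 CTRL, 112 against 0 in B16 residual, and had 17 in CT-26 CTRL against 6 in CT-26 residual. Ighd4-1, with the most in CT-26 CTRL, had 38 reads in B16 CTRL against 3 in B16 residual, and 33 in CT-26 CTRL against 6 in CT-26 residual.

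Among genes of antibody secretion, Jchain, which joins IgM and IgA into polymers, had 0 reads in B16 CTRL against 336 in B16 residual, and 171 in CT-26 CTRL against 10491 in CT-26 residual. Of 10 plasma cell genes, 3 were higher and 1 lower in B16 CTRL, beside 26.8% and 11.7% of genes at 10 CPM. Of that list, Jchain, Tnfrsf17 and Derl3 stayed under 10 CPM in both B16 libraries and could not be called. In CT-26 CTRL, 0 of the 10 were higher and 5 lower, beside 14.5% and 16.3% of genes at 10 CPM. Rag1, which cuts the segments during recombination, had 0 reads in B16 CTRL against 10 in B16 residual, and none in either CT-26 library. Of 14 genes of V(D)J recombination and the surrogate light chain, 4 were higher and 0 lower in B16 CTRL. In CT-26 CTRL, 3 of them were higher and 2 lower. The shares among genes at 10 CPM were 26.8% and 11.7% in B16, and 14.5% and 16.3% in CT-26. The 3 that were higher in both CTRL libraries were Xrcc5, Xrcc6 and Prkdc, general DNA end-joining genes. Of 6 genes of antigen-driven diversification, 2 were higher in B16 CTRL, beside 26.8% of genes at 10 CPM. In CT-26 CTRL, 3 were higher, beside 14.5%. None was lower, and most of them act in DNA repair in any cell. V reads per read of Cd79a, a signalling chain of the B cell receptor, were 1.79 in B16 CTRL against 1.40 in B16 residual, and 1.53 in CT-26 CTRL against 3.98 in CT-26 residual.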

How the data were processed

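The deposited tables, 1 per tumour model, list raw read counts per gene for each library, normalized counts, and the authors' log2 fold and p-value columns. The raw counts are whole-number reads per gene, as deposited, with no normalization. The normalized signal per gene is, per the file headers, a normalized read count, and equals the deposited count divided by a size factor. The log2 fold is the authors' value and is used only as an alternative. The p-value columns are the authors', and none is printed, since with 1 library per group they have no replicate spread. Libraries were made with the SMART-Seq v4 kit, per the labels' protocols. DESeq2, HTSeq 0.11.2, STAR 2.7.3a and the build mm10 are named in the submitters' processing notes, with no roles. The sources used here do not say whether strand was used in counting. Models were normalized separately, so ratios are taken within a model, and shares and CPM are set side by side across models.

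From the raw counts, CPM used each library's total, and 10 CPM equals 372, 391, 749 and 508 reads in B16 CTRL, B16 residual, CT-26 CTRL and CT-26 residual. Intervals are exact (Clopper-Pearson for shares, conditional binomial for ratios) and cover counting error only. Coordinates, V exon lengths and sequences come from GENCODE M21, and identity is over aligned V exon sequence. The fit over both models used edgeR 4.0.16 with TMM scaling and its filter on low counts, and DESeq2 1.42.0 as an alternative. The procedures were tested on simulated data. Segments were named by rule: the 5 most used Ighv and Igkv segments of each library, all Iglv, the 5 largest and 5 smallest ratios per model at 10 CPM, and 4 segments of the B-1 repertoire. Igkv1-99, Igkv4-62, Igkv14-100, Igkv5-37, Igkv1-132, Ighv7-2, Ighv1-62-2, Ighv1-71, the pseudogene Ighv1-14 and the D segments were named after their values were seen. 1 gene of the B cell list is not reported here. The members and gene lists were chosen with earlier results of these data known.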

Additional observations from a re-analysis of the deposited data

Results flagged for a closer look

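The summed V-segment log2 ratio of CTRL over residual was 2.67 in B16 and -3.64 in CT-26, opposite directions under the same contrast. With 1 library per group the difference between the models was not tested, and tumour model, strain and library cannot be told apart. B cell marker levels moved in the same directions, and their part in the result was not tested.

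Reads of V pseudogenes, which the comparisons of V segments do not use, made up 3.47% of V reads in CT-26 CTRL (exact 95% interval 3.01 to 3.98) against 1.92% in CT-26 residual (1.79 to 2.06). In B16 they made up 0.889% in CTRL against 2.37% in residual. Reads of D segments, also outside the comparisons of V segments, numbered 218 in B16 CTRL against 9 in B16 residual, and 56 in CT-26 CTRL against 36 in CT-26 residual.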

How the results depend on the processing

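No paired analysis within a model was possible because each group has 1 library and the labels give no replicate numbers. The only pairing was by tumour model, as a term in the fit over both models. Leaving out a library was not run, since within a model no ratio is left and in the fit over both models 3 libraries leave no residual degree of freedom. The direction of the summed ratio did not change under any alternative. On CPM it was 3.51 in B16 and -3.44 in CT-26, and with the most abundant segment of each library left out it was 2.63 and -3.69. Counts of called segments followed the level. At 1 CPM, 152 segments were higher in B16, and in CT-26 102 were lower and 2 higher. With no level, 166 were higher and 3 lower in B16, and 175 lower and 3 higher in CT-26. Shares of all genes called were taken only at 10 CPM, so the counts at these other levels have no background beside them. Leaving out segments that share a window of 100 bases with another V segment or pseudogene, an alternative chosen after seeing the data, left 33 higher of 36 at the level in B16 and 11 lower of 11 in CT-26. In the fit over both models, DESeq2 called 1 segment higher (adjusted p 1.34e-06) and edgeR without its filter called 1 higher (adjusted p 0.00322), against 0 in the filtered fit. The cause was not tested.

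Among light-chain constant-region reads, the lambda share was lower in B16 CTRL (28.3%) than in B16 residual (30.6%). Among V reads it remained higher in CTRL than in residual in both models under every alternative run. With the most abundant kappa and lambda segment left out it was 9.20% in B16 CTRL against 7.49% in B16 residual, and 5.23% in CT-26 CTRL against 2.99% in CT-26 residual. Per exon length it was 18.5% in B16 CTRL. With a minimum of 100 reads per segment the heavy-chain share was 20.5% in B16 CTRL against 20.7% in B16 residual, and 22.4% in CT-26 residual.

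The effective number of Ighv segments with that minimum was 40.4 in B16 CTRL against 49.9 in B16 residual, and 17.4 in CT-26 CTRL against 40.8 in CT-26 residual. Without the most abundant segment it was 50.1 in B16 CTRL against 61.5 in B16 residual, and 35.7 in CT-26 CTRL against 49.0 in CT-26 residual, so Ighv5-6 moved the CT-26 CTRL value by over 1.5 times. As the inverse Simpson index it was 25.8 in B16 CTRL against 46.2 in B16 residual, and 7.72 in CT-26 CTRL against 32.1 in CT-26 residual. For Igkv the 3 alternatives gave 54.3, 60.7 and 37.1 in B16 CTRL against 56.5, 58.8 and 44.9 in B16 residual, and 48.8, 50.6 and 37.5 in CT-26 CTRL against 43.5, 46.6 and 30.2 in CT-26 residual. The B16 order of Igkv thus turned without the most abundant segment. At 1000 reads the expected number of Ighv segments was 83.6 in B16 CTRL against 88.4 in B16 residual, and 65.3 in CT-26 CTRL against 83.1 in CT-26 residual. For Igkv it was 85.0 in B16 CTRL against 85.2 in B16 residual. In CT-26 it was 77.7 in CTRL against 74.0 in residual, the opposite order to that at 3480 reads. No log2 ratio of a named segment that was called changed sign on CPM, with a pseudocount of 0.1 or 5, or as the authors' fold. These alternatives could hardly change it. A pseudocount on both counts cannot turn a sign. The CPM scaling moved the median of all genes by 0.79 in B16 and 0.18 in CT-26, and a call needs a size of 1. The authors' fold is of the same libraries. The kept signs are therefore no check of direction. Depth limits single segments in CT-26 CTRL most, where 5456 V reads were spread over 156 segments.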

Other observations

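Some segments had reads in 1 tumour model only. Ighv7-2 had 9 reads in CT-26 CTRL against 79 in CT-26 residual and none among the 23445 Ighv reads of B16, which allows a share of up to 0.0128%, taking 3 reads as the limit of a count of 0. The pseudogene Ighv1-14 had 27 reads in CT-26 CTRL against 159 in CT-26 residual, and none in either B16 library. In the other direction, 7 members had no reads in CT-26, among them Igkv5-37 with 46 reads in B16 CTRL against 1 in B16 residual, and Igkv1-132 with 46 in B16 CTRL against 6 in B16 residual. None of the 32102 Igkv reads of CT-26 fell on them, which allows a share of up to 0.00935% by the same limit. These limits cover counting error only, and model, strain and library cannot be told apart. Reads of a strain that differs from mm10 may have been counted on other segments, which was not tested.

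Segment use also differed inside each chain when counting error alone was considered. In B16, the exact interval of the log2 share ratio, CTRL over residual, lay above 0 for 19 of 100 Ighv segments. It lay below 0 for 34 and included 0 for 47. In CT-26 it lay above 0 for 15, below 0 for 27 and included 0 for 56 of 98. For Igkv it lay above 0 for 28, below 0 for 30 and included 0 for 39 of 97 in B16. In CT-26 these were 30, 24 and 39 of 93 Igkv segments. Shares within a chain have a fixed sum, so a segment with a large share in 1 library lowers the shares of the others there. The median size of the log2 share ratio was taken over segments with reads in both libraries of a model. It was 1.05 for Ighv and 0.59 for Igkv in B16, and 1.19 and 0.99 in CT-26. Segments with no reads in 1 library have no finite ratio and are not covered by these medians. Among them were Ighv11-2 and Igkv14-130 in CT-26, with 0 reads each in CTRL against 144 and 838 in residual.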
